A study of Mus musculus with 9 samples.

Results

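The forkhead genes encode transcription factors that share one DNA-binding domain, and they were followed here in pancreatic ductal adenocarcinoma (PDAC) cells with and without Yap. The family was taken as every protein-coding mouse gene whose symbol is Fox, a subfamily letter from a to s and a number, which gave 44 of the 47643 genes in the files, in 19 subfamily letters. RNA came from FACS-sorted PDAC cells of tumor-bearing mice on a TAM-containing diet. KPF mice carry an oncogene allele switched on by Flp, Trp53 frt/+, Pdx-Flp and the R26 alleles FSF-CreER and Dual, and gave 6 libraries of GFP+Yap+ cells. KPYYF mice carry all of these and Yap flox/flox, and gave 3 libraries of Tm+Yap− cells. Per the paper, the Tm+Yap− cells came from relapse nodules that grew out after extended TAM treatment. It calls these nodules highly proliferative and generally poorly differentiated. Flp driven by Pdx switches on the oncogene, recombines Trp53 and marks the cells green in both groups, and TAM then activates CreER, which turns the marker red and in KPYYF cells deletes Yap. The GFP+ cells of KPF mice are therefore cells whose marker had not been switched. Genotype, Yap status, reporter color and outgrowth as a relapse nodule changed together between the groups and cannot be told apart. The comparison is therefore not one of Yap deletion alone. The methods give a range of ages in weeks and both sexes for all mice of the study together. The age and sex of each mouse behind a library are not given in the sources used here. Xist, an RNA of female cells, had 3452 to 16108 counts in KPYYF libraries and 5878 to 10933 in KPF libraries 4435, 4504h and 4504s. It had 71 to 159 counts in KPF libraries 4269, 4515 and 4601, so that sex by this measure was not balanced between the groups. TAM feeding began only once tumors could be felt. Each library bears a mouse number, and KPF libraries 4504h and 4504s share one.

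A forkhead protein reads DNA through a winged helix, whose recognition helix lies in the major groove. Foxa proteins open closed chromatin at endoderm and pancreas genes, Foxo proteins are kept out of the nucleus by Akt when insulin or growth factor signalling is active, and Foxm1 drives genes of the G2 and M phases of the cell cycle. Foxc, Foxf and Foxl1 proteins are best known from mesenchyme, where Foxf and Foxl1 genes answer to hedgehog ligands released by epithelium.

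The recognition helix shows what the members share. The 15 codons that hold it were located in the coding sequence of 43 of the 44 genes, all but Foxr1, in GENCODE release M21 on GRCm38. They are printed for 7 of the 8 genes that passed the weaker of the call rules used below, so that the family's fixed part can be seen beside genes with opposite changes. Capitals mark the 18 of 45 bases that are the same in all 7.

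Foxa3 (chr7:19014669-19014713, minus strand): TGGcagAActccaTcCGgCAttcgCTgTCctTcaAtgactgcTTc
Foxq1 (chr13:31559391-31559435, plus strand): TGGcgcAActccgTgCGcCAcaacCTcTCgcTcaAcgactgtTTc
Foxc1 (chr13:31807571-31807615, plus strand): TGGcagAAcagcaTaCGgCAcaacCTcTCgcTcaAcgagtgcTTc
Foxc2 (chr8:121116957-121117001, plus strand): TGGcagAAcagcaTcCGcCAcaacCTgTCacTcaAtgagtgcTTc
Foxl1 (chr8:121128238-121128282, plus strand): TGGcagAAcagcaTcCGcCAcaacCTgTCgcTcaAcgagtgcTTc
Foxo1 (chr3:52269417-52345077, plus strand, interrupted by an intron): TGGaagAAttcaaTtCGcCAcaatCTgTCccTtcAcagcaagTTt
Foxm1 (chr6:128369480-128370995, plus strand, interrupted by an intron): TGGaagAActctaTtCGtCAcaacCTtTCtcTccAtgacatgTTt

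An intron interrupts the window in 14 genes, which are the 3 Foxj, 2 Foxk, 1 Foxm, 4 Foxo and 4 Foxp genes, and it lies in 1 exon in the other 29. The 14 interrupted genes all had counts, 10 of them in every library. Of the 29 genes with the window in 1 exon, 11 had no count and 7 had counts in every library.

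The libraries held between 8116539 and 9635514 reads on genes. They are 3′ end libraries, in which a transcript gives about 1 read near its end, so levels are given as CPM, counts scaled to equal library sizes with edgeR's TMM factors and not divided by length. Tests are edgeR's quasi-likelihood test of KPYYF against KPF libraries over the 14105 genes with at least 100 counts in all, with Benjamini-Hochberg adjustment, and log2 fold changes are KPYYF minus KPF, given ± their standard error (SE). Where no read was counted, as many as 3 counts remain possible, or 0.292 to 0.437 CPM by library, a limit that covers counting error only. In bulk RNA, fewer cells of a type and less RNA per cell cannot be told apart, and p-values measure the spread between these libraries only. The epithelial markers Krt7, Krt8, Krt18, Krt19, Epcam and Cdh1 were counted in every library, summing to 3126 to 8183 CPM in KPF and 525 to 1551 CPM in KPYYF libraries. Fibroblast markers summed to 412 to 5451 and 1130 to 3114 CPM, myeloid markers to 459 to 7840 and 355 to 740 CPM, and acinar markers to 68.7 to 20146 and 74.2 to 6000 CPM. KPF library 4601 held the highest myeloid sum, and KPF library 4504s and KPYYF library 4449 the highest acinar sums of their groups. The sums in KPF and KPYYF libraries were 0.10 to 125 and 0.33 to 5.34 CPM for lymphoid, 10.8 to 68.0 and 12.7 to 14.8 CPM for endothelial, and 0.51 to 58.7 and 2.63 to 20.4 CPM for islet markers.

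Of the 44 forkhead genes, 32 had at least 1 count and 24 reached the 100 counts needed for the test. The 12 without a count in any library were Foxb1, Foxb2, Foxd3, Foxe1, Foxe3, Foxh1, Foxi2, Foxi3, Foxl2, Foxn4, Foxr1 and Foxr2, so that the B, E, H and R subfamilies were not detected at this depth. Another 8 stayed under the filter, with totals of 98 counts for Foxj1, 84 for Foxo6, 31 for Foxd2, 6 for Foxi1, 5 for Foxp3, 4 for Foxn1 and 3 each for Foxd1 and Foxd4. Foxp1 was the most abundant member in 8 of the 9 libraries, with Foxq1 above it in KPF library 4504s, and took 22.8 to 36.6% of the summed forkhead CPM in KPF and 19.3 to 38.0% in KPYYF libraries. Foxq1 took 12.4 to 25.5% in KPF libraries and 1.01 to 12.2% in KPYYF libraries. The sum over all 44 genes was 1042 to 1630 CPM in KPF and 759 to 953 CPM in KPYYF libraries, without overlap. The lowest KPF sum, in 4601, held 153 CPM of Foxq1, and the highest KPYYF sum, in 4891, held 15.9 CPM. Without Foxq1 the sums of the groups overlapped.

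**Figure D1:**
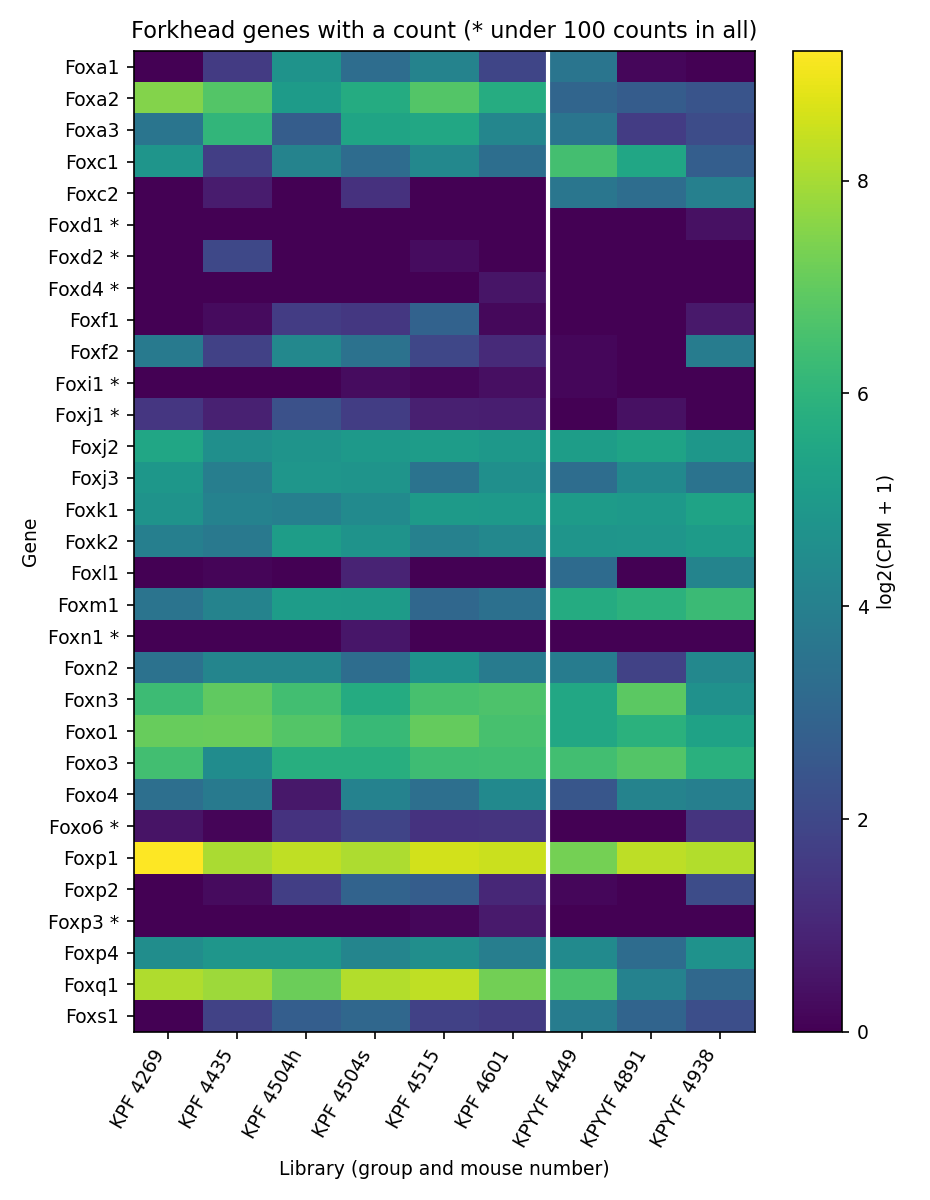
Levels of 31 of the 32 forkhead genes with a count (rows) in the 6 KPF and 3 KPYYF libraries (columns, split by the white line), as log2(CPM + 1) in color. Foxp1 is the brightest row in 8 of the 9 libraries, and Foxa2 and Foxq1 are darker and Foxc2 and Foxm1 brighter to the right of the line.

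At an adjusted p under 0.05, 1 of the 24 tested members was lower in KPYYF libraries, Foxa2, and 0 were higher, where the shares over all genes tested were 0.794% lower and 0.305% higher. By a weaker p and fold rule, an edgeR p under 0.05 before adjustment with a fold above 2, 4 members were lower (Foxa2, Foxa3, Foxo1 and Foxq1) and 4 higher (Foxc1, Foxc2, Foxl1 and Foxm1). Over all genes tested, 9.2% were lower and 4.2% higher by this rule. The methods name the same cutoffs for DESeq2 and do not say whether the p was adjusted. The groups did not overlap in 3 members that were lower, Foxa2, Foxo1 and Foxq1, and in 2 that were higher, Foxc2 and Foxm1, against 5.18% and 3.92% of all genes. The median log2 fold change of the 24 was -0.35, beside -0.07 over all genes, and 14 of the 24 were below 0, beside 53.3% of all genes. The median size of the change, without its sign, was 0.99 for the members and 0.61 for all genes. The study picked Foxa2, Foxq1, Foxo1 and Foxm1 for display from these same libraries, so their directions are not independent evidence.

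**Figure D2:**
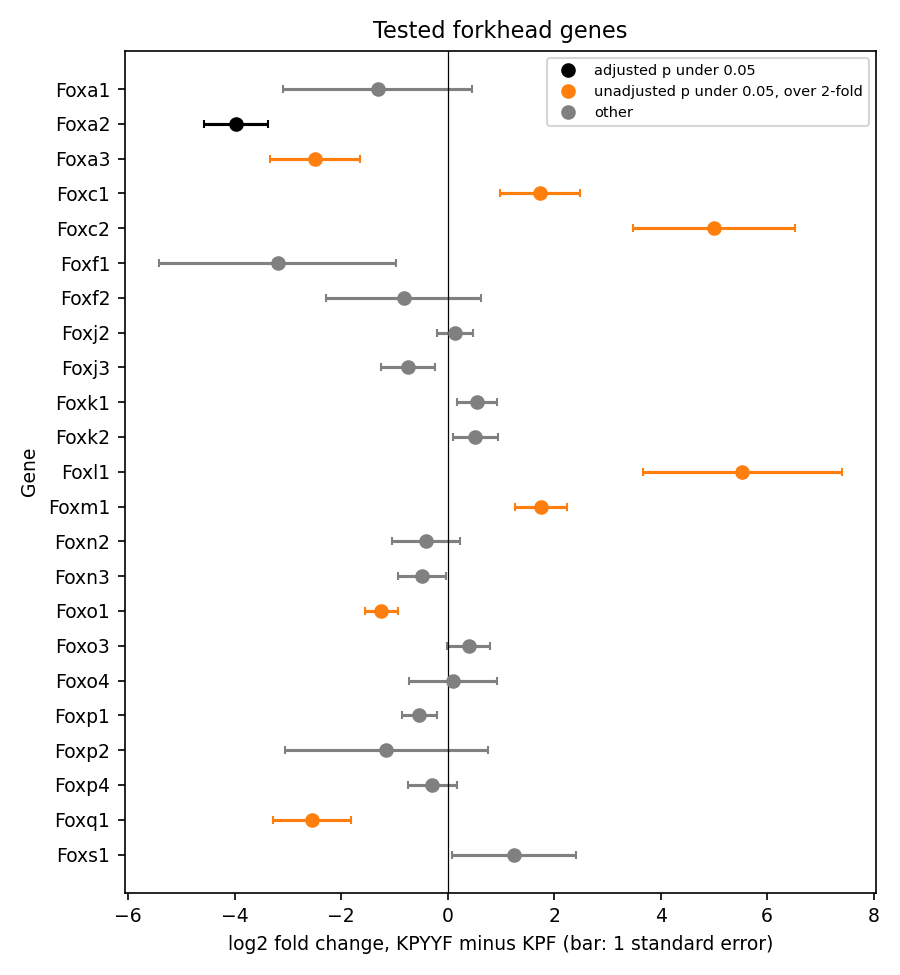
Log2 fold change, KPYYF minus KPF, of 23 of the 24 tested forkhead genes (points) with 1 standard error (bars). Foxa2, in black, alone has an adjusted p under 0.05, the 7 orange genes pass an unadjusted p under 0.05 with a more than 2-fold change, and the changes run from -3.97 for Foxa2 to 5.53 for Foxl1.

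The 3 Foxa genes, pioneer factors of endoderm, all had log2 fold changes below 0. Foxa2 (ENSMUSG00000037025, chr2:148042877-148046969), which acts in pancreas and foregut development, ran from 32.7 to 180.0 CPM with a median of 78.9 CPM in KPF libraries. It was at 7.01 CPM in KPYYF library 4449, 5.47 CPM in 4891 and 4.27 CPM in 4938, so that each KPYYF library lay far below the lowest KPF library. Foxa2 fell from 87.9 ± 54.8 CPM (SD, n = 6) to 5.58 ± 1.37 CPM (SD, n = 3), with a log2 fold change of -3.97 ± 0.60 (SE, adjusted p = 0.0141 from edgeR). The adjusted p was 0.0553 without KPYYF library 4891 and 0.0604 without 4938.

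Foxa3, a factor of liver and gut epithelium, ran from 5.52 to 65.6 CPM with a median of 29.2 CPM in KPF libraries, and was at 11.0, 2.08 and 3.40 CPM in KPYYF libraries 4449, 4891 and 4938. Library 4449 lay within the KPF range and the other KPYYF libraries below it. Its log2 fold change was -2.49 ± 0.85 (SE, adjusted p = 0.167), and with voom in place of edgeR it did not pass the p and fold rule. Foxa1, which shares many sites with Foxa2, ran from 0 to 25.3 CPM with a median of 5.77 CPM in KPF libraries, and was at 11.0, 0.11 and 0 CPM in the KPYYF libraries. Its groups overlapped widely, with a log2 fold change of -1.31 ± 1.77 (SE, adjusted p = 0.784), and without library 4449 this was -7.08 (adjusted p = 0.170), a fitted value that rests on 1 KPYYF count and is no bound. Summed over the subfamily, Foxa levels were 63.6 to 191 CPM in KPF libraries and 29.1, 7.65 and 7.67 CPM in the KPYYF libraries, without overlap. All 6 epithelial markers also had log2 fold changes below 0. By the p and fold rule 5 were lower, 2 of them (Krt18 and Cdh1) at an adjusted p under 0.05, while Epcam passed neither rule. Their part in the Foxa result was not tested.

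Among 17 endoderm and epithelial factors that act beside Foxa proteins, 13 were tested. None had an adjusted p under 0.05, 6 were lower and 0 higher by the p and fold rule, and 12 were below 0, with a median log2 fold change of -1.50. This median was -3.10 without KPYYF library 4449 and -4.00 with voom. The lowest was Nr5a2, a nuclear receptor of acinar and liver cells, at 0 to 50.7 CPM in KPF and at most 0.12 CPM in KPYYF libraries (log2 change -7.61 ± 2.81 SE, adjusted p = 0.207). This fitted value rests on 1 KPYYF count and is no bound. Both Nr5a2 and the sum of acinar markers were highest in KPF library 4504s, and the part of acinar RNA was not tested. Only Pdx1, whose regulatory sequence drives Flp in these mice, was above 0, at 0.37 ± 0.50 (SE, adjusted p = 0.784).

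Foxq1 (ENSMUSG00000038415, chr13:31556134-31560976), a factor of stomach and epithelial lining cells, was among the most abundant members in KPF libraries, at 141 to 319 CPM with a median of 257 CPM. It was at 97.1 CPM in KPYYF library 4449, 15.9 CPM in 4891 and 7.67 CPM in 4938, below every KPF library but far apart among themselves. The log2 fold change was -2.54 ± 0.73 (SE, adjusted p = 0.123). Without library 4449 it was -4.32 (adjusted p = 0.00595). Library 4449 was thus the highest KPYYF library for Foxa1, Foxa2, Foxa3 and Foxq1, and it also had the highest epithelial and acinar marker sums of the KPYYF libraries, at 1551 and 6000 CPM.

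**Figure D3:**
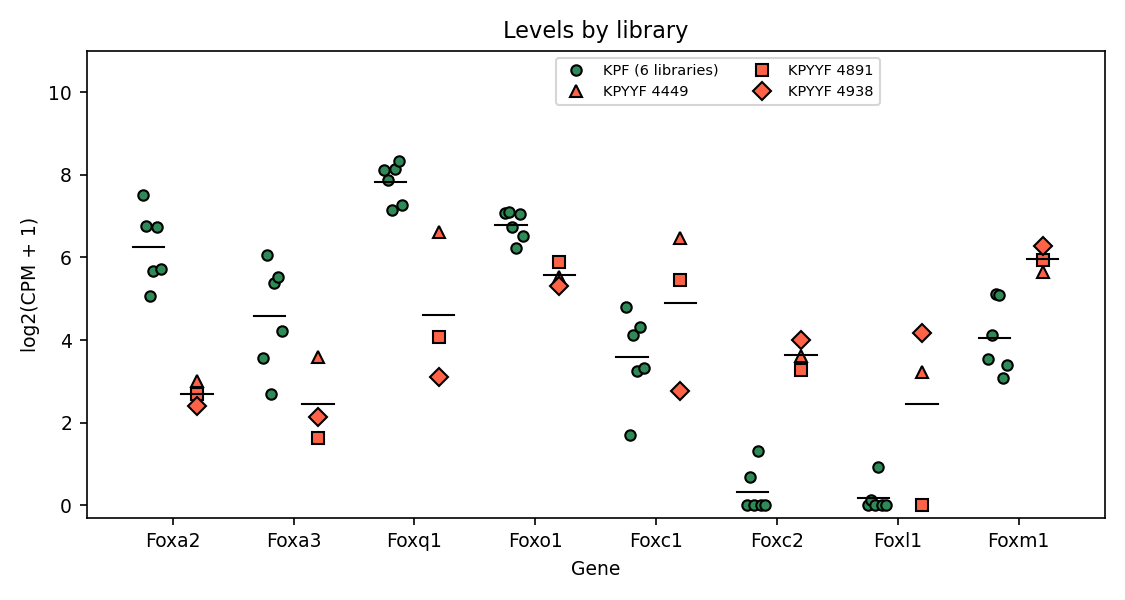
Level by library, as log2(CPM + 1), of the 8 forkhead genes that passed the p and fold rule. Green circles are the 6 KPF libraries, red symbols the 3 KPYYF libraries and lines the group means. Foxa2, Foxq1 and Foxo1 show KPYYF libraries below all KPF libraries, Foxc2 and Foxm1 above all of them, and the groups overlap in Foxa3, Foxc1 and Foxl1.

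Foxo1 (ENSMUSG00000044167, chr3:52268336-52353221) was lower in KPYYF libraries by the p and fold rule, and Foxo3 and Foxo4 passed neither rule. Foxo1, a main effector of insulin signalling, ran from 73.9 to 137 CPM with a median of 118 CPM in KPF libraries and was at 45.0, 58.3 and 38.6 CPM in KPYYF libraries 4449, 4891 and 4938, without overlap. The log2 fold change was -1.24 ± 0.31 (SE, adjusted p = 0.0777), from -1.42 to -1.10 over the 17 alternatives. It had the smallest standard error of the 24 tested members.

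Foxo3, the Foxo factor best known from stress responses, ran from 21.2 to 84.4 CPM with a median of 67.2 CPM in KPF and was at 84.4, 106.8 and 56.8 CPM in KPYYF libraries (log2 change 0.40 ± 0.40 SE, adjusted p = 0.693). Foxo4 ran from 0.51 to 19.5 CPM with a median of 11.0 CPM in KPF and was at 4.51, 16.6 and 14.9 CPM in KPYYF libraries (log2 change 0.10 ± 0.82 SE, adjusted p = 0.974). Both overlapped between the groups, and the difference between the changes of Foxo1 and Foxo3 was not tested. The summed Foxo level was 147 to 227 CPM in KPF and 112 to 182 CPM in KPYYF libraries.

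The 24 genes of the PI3K-Akt arm, the 14-3-3 proteins and other enzymes that act on Foxo proteins were all tested. None passed the adjustment, 2 were lower and 0 higher by the p and fold rule, and the median log2 fold change was -0.16. The lowest was the 14-3-3 gene Sfn, at -2.59 ± 1.13 (SE, adjusted p = 0.297), and the other called gene was the kinase gene Sgk1, at -1.33 ± 0.47 (SE, adjusted p = 0.180). Among 33 known Foxo targets, 29 were tested, 0 passed the adjustment, 2 were lower and 1 higher by the p and fold rule, and the median was 0.09. Gadd45a, a DNA damage response gene, had the lowest value at -1.92 ± 0.69 (SE, adjusted p = 0.185), and Pdk4, which restrains pyruvate oxidation, the highest at 1.42 ± 1.67 (SE, adjusted p = 0.742). The other called targets were the cell cycle inhibitor gene Cdkn1a, lower at -1.28 ± 0.44 (SE, adjusted p = 0.169), and Sod2, which encodes the mitochondrial superoxide dismutase, higher at 1.03 ± 0.28 (SE, adjusted p = 0.0952). Sod2 ran from 51.5 to 104 CPM in KPF and from 136.8 to 144 CPM in KPYYF libraries, without overlap. The values of Sgk1, Cdkn1a and Sod2 were known when they were picked for naming. The targets lay on both sides of 0, with 13 below and 16 above.

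Foxm1 (ENSMUSG00000001517, chr6:128362967-128376146) was higher in every KPYYF library than in any KPF library. It ran from 7.53 to 33.4 CPM with a median of 13.5 CPM in KPF libraries and was at 49.5 CPM in 4449, 60.4 CPM in 4891 and 76.4 CPM in 4938. The log2 fold change was 1.75 ± 0.49 (SE, adjusted p = 0.109), from 1.18 to 2.03 over the 17 alternatives. Without a filter on low counts its adjusted p was 0.0489. The annotated genes Tex52 and Gm44596 overlap Foxm1 on its strand, and reads shared between them cannot be told apart.

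All 23 genes of a list of known Foxm1 targets in G2 and M phase were tested and had a log2 fold change above 0, with a median of 1.40. None had an adjusted p under 0.05, and 16 were higher and 0 lower by the p and fold rule. The values ran from 0.82 for Cenpe, a kinetochore motor (SE 0.44, adjusted p = 0.392), to 3.08 for Aurkb, a kinase of the chromosomal passenger complex (SE 1.14, adjusted p = 0.197). Their summed level was 606 to 1339 CPM in KPF and 1908 to 2630 CPM in KPYYF libraries, without overlap. Among the KPF libraries, 4504h, 4504s and 4435 had both the 3 highest Foxm1 levels, 16.5 to 33.4 CPM, and the 3 highest sums, 1111 to 1339 CPM. Of these, 4504h and 4504s share a mouse number. The other KPF libraries had 7.53 to 10.6 CPM of Foxm1 and sums of 606 to 689 CPM. Libraries 4504h, 4504s and 4435 are also the KPF libraries with over 1000 Xist counts, as are all KPYYF libraries. Within these 6 libraries the log2 fold change of Foxm1 was 1.18 (adjusted p = 0.287 from edgeR). Foxm1 and the listed genes all belong to dividing cells, and the part of the share of dividing cells was not tested.

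**Figure D4:**
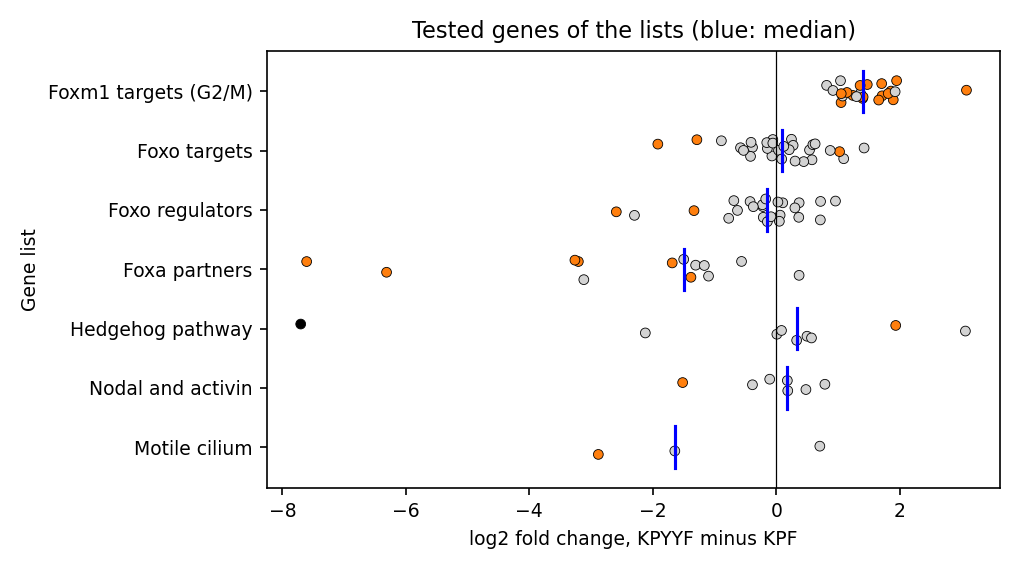
Log2 fold changes, KPYYF minus KPF, of the tested genes (points) in 7 lists of genes that act upstream of, with or downstream of forkhead factors, with the list median as a blue line. All 23 Foxm1 targets lie above 0, 12 of 13 Foxa partners below it, and the Foxo lists on both sides, while Dhh in the hedgehog list is the only point with an adjusted p under 0.05 (black, orange as in the plot of log2 fold changes).

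Foxc1, Foxc2 and Foxl1 were higher in KPYYF libraries by the p and fold rule. Foxl1 and Foxc2 had the highest log2 fold changes of the 24 tested members. Both passed the filter on total counts only through their KPYYF counts. In KPF libraries 4435 and 4504s, Foxc2 had 6 and 13 counts and Foxl1 had 1 and 8. A member this low in every library would not have been tested. Foxc2 (ENSMUSG00000046714, chr8:121116171-121118895), a factor of mesenchyme and lymphatic vessels, was at 0 in 4 of the 6 KPF libraries and at 0.61 and 1.48 CPM in 4435 and 4504s. It was at 11.2, 8.75 and 15.1 CPM in KPYYF libraries 4449, 4891 and 4938, each well above the KPF range. The log2 fold change was 5.01 ± 1.53 (SE, adjusted p = 0.128), and from 4.05 to 6.41 over the 17 alternatives, and few KPF counts stood behind it.

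Foxc1 (ENSMUSG00000050295), which acts beside Foxc2 in mesenchyme, ran from 2.25 to 26.9 CPM with a median of 12.7 CPM in KPF libraries and was at 87.9, 42.9 and 5.81 CPM in the KPYYF libraries. Libraries 4449 and 4891 lay above the KPF range, and 4938 lay within it. The log2 fold change was 1.73 ± 0.74 (SE, adjusted p = 0.272), and 0.83 without library 4449. Foxl1 (ENSMUSG00000097084), a factor of the mesenchyme under gut epithelium, had no count in 4 KPF libraries and 0.10 and 0.91 CPM in 4435 and 4504s. It was at 8.31 CPM in KPYYF library 4449, 0 in 4891 and 17.0 CPM in 4938, so that only some KPYYF libraries had it (log2 change 5.53 ± 1.87 SE, adjusted p = 0.164). Foxc1 and Foxl1 therefore did not share their low KPYYF library. The summed fibroblast markers overlapped between the groups, while 6 of 9 were above 0, and 2 were higher and 0 lower by the p and fold rule. Pdgfra ran from 4.38 to 42.0 CPM in KPF and 24.3 to 285 CPM in KPYYF libraries (log2 change 2.90 ± 0.77 SE, adjusted p = 0.105). Dpt ran from 1.77 to 29.2 CPM and 27.2 to 62.8 CPM (log2 change 2.04 ± 0.67 SE, adjusted p = 0.156). Col1a1, Col1a2 and Fap went the other way, at -1.46 ± 0.91, -1.71 ± 1.12 and -1.62 ± 1.87 (log2 change, SE), and passed neither rule. The mean of Col1a1 went from 762 CPM in the KPF group to 277 CPM in the KPYYF group. That of Col1a2 went from 731 to 224 CPM. The part of fibroblast RNA in the Foxc and Foxl1 results was not tested.

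Foxf1 and Foxf2, mesenchymal factors of gut and lung, had low and uneven counts. Foxf1 ran from 0 to 6.42 CPM with a median of 1.01 CPM in KPF and was at 0, 0 and 0.55 CPM in KPYYF libraries (log2 change -3.19 ± 2.23 SE, adjusted p = 0.530). Foxf2 ran from 1.17 to 18.9 CPM with a median of 6.56 CPM in KPF and was at 0.12, 0 and 13.6 CPM in the KPYYF libraries 4449, 4891 and 4938 (log2 change -0.83 ± 1.46 SE, adjusted p = 0.846). Without library 4938 the value of Foxf2 was -6.82 (adjusted p = 0.162). Foxs1, a gene of pericytes and neural crest, ran from 0 to 7.52 CPM in KPF and 3.62 to 13.8 CPM in KPYYF libraries (log2 change 1.24 ± 1.17 SE, adjusted p = 0.666). The summed pericyte and smooth muscle markers overlapped, at 39.2 to 288 CPM in KPF and 50.4 to 189 CPM in KPYYF libraries, but single markers went both ways. Cspg4 rose, from 0.58 to 5.83 CPM in KPF to 6.45 to 102.9 CPM in KPYYF libraries (log2 change 4.08 ± 0.80 SE, adjusted p = 0.0351 from edgeR). Rgs5 (-2.52 ± 0.71 SE, adjusted p = 0.113) and Acta2 (-2.65 ± 0.85 SE, adjusted p = 0.150) were lower by the p and fold rule. The part of these cells in the Foxs1 and Foxf values was not tested.

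The hedgehog list of 11 ligand, receptor and Gli genes, which lie upstream of Foxf and Foxl1, had 9 tested genes. One passed the adjustment, the ligand gene Dhh, at 11.2 to 94.7 CPM in KPF and 0.11 to 0.22 CPM in KPYYF libraries, without overlap (log2 change -7.70 ± 1.04 SE, adjusted p = 0.0141 from edgeR). Dhh is also made by Schwann cells, and the summed Schwann cell markers were 18.1 to 97.0 CPM in KPF and 0.55 to 7.36 CPM in KPYYF libraries, nearly all S100b, with Sox10 at 0 in every library. Their part in the Dhh result was not tested. Gli3 alone was higher by the p and fold rule, at 1.94 ± 0.87 (SE, adjusted p = 0.297). The median of the list was 0.33, and it lay below 0 with voom, at -0.40, and without KPYYF library 4449, at -0.48.

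Within each of 2 clusters of forkhead genes, the signs of the log2 fold changes were mixed. On chromosome 13, Foxq1, Foxf2 and Foxc1 lie within 256 kb on the same strand, with log2 fold changes of -2.54, -0.83 and 1.73. On chromosome 8, Foxf1, Foxc2 and Foxl1 lie within 46.3 kb on the same strand, with -3.19 ± 2.23, 5.01 ± 1.53 and 5.53 ± 1.87 (SE). The mixed signs there rest on Foxf1, which passed neither rule (adjusted p = 0.530 from edgeR). KPYYF library 4938 had the lowest Foxc1 and Foxq1 and the highest Foxf2 of its group, while 4449 had the highest Foxc1 and Foxq1. Within 100 kb of a forkhead gene lay 284 other genes, of which 104 were tested, 0 passed the adjustment, and 6 were lower and 5 higher by the p and fold rule. The gene model Gm20388 spans all 3 chromosome 8 genes and had no count.

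**Figure D5:**
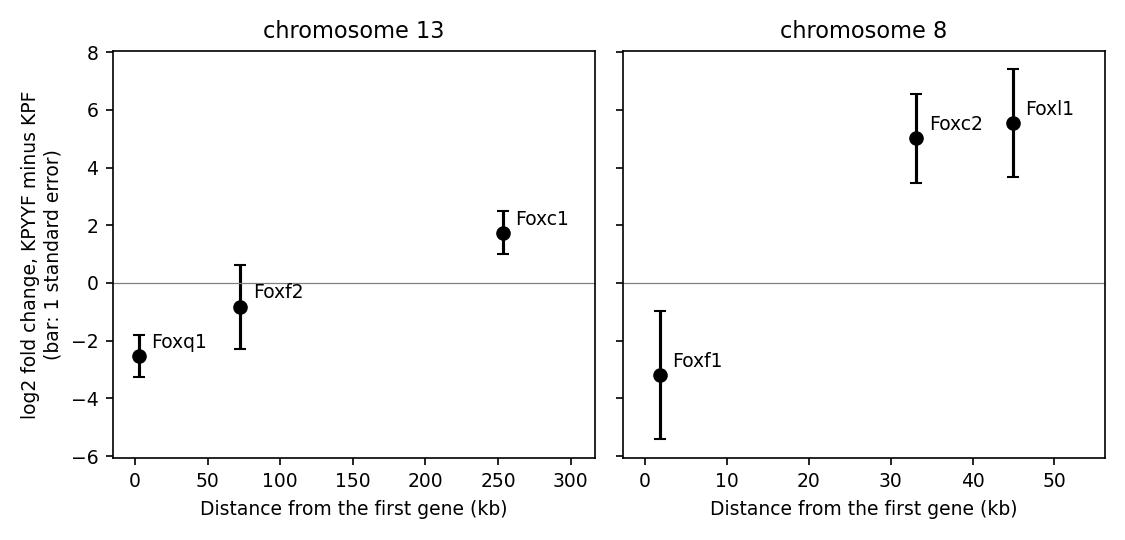
Log2 fold change, KPYYF minus KPF (points, bars 1 standard error), of the 3 forkhead genes of each cluster against their distance in kb from the start of the first gene. On chromosome 13 the values run from -2.54 (Foxq1) to 1.73 (Foxc1), and on chromosome 8 Foxf1 lies below 0 and Foxc2 and Foxl1 above it.

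Upstream sequence was taken for Foxa2 and Foxc1, called in opposite directions by the p and fold rule. Each run is the 250 bases before a RefSeq start on GRCm38.p6, 5′ to 3′ on the gene's strand, with capitals on CCAAT or its reverse, ATTGG.

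Foxa2 (chr2:148046970-148047219, minus strand, the outermost of 3 RefSeq starts): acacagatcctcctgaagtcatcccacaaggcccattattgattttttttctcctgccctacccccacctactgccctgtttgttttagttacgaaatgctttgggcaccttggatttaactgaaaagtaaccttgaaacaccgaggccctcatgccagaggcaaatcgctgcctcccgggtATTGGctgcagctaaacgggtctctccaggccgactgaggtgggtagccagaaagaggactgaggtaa
Foxc1 (chr13:31806396-31806645, plus strand): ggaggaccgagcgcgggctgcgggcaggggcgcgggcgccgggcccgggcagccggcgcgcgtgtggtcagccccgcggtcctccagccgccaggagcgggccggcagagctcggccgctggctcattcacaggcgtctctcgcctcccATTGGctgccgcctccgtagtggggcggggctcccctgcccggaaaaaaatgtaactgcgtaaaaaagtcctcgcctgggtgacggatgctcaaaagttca

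The Foxa2 run holds 6 CpG, those before the other 2 Foxa2 starts hold 13 and 20, and the Foxc1 run holds 29, beside a median of 16 over 33 promoters of 28 forkhead genes and 6 over 32851 RefSeq promoters. Among the members called by the p and fold rule, Foxq1, Foxm1, Foxc2 and Foxl1 had no promoter in this set and were not searched for motifs. CCAAT on either strand was found in 14 of the 33 forkhead promoters and in 33.8% of all. The forkhead motif TGTTTAC was found in 1 of the 33, that of Foxa1, and in 3.17% of all. The TEAD motif GGAATG was found in 3, those of Foxb2, Foxo3 and Foxp1, and in 12.6% of all. The E-box CACCTG was found in 7, and in 17.2% of all. No motif contains another, and a match describes the letters only.

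The tested members of the J, K, N and P subfamilies passed neither rule. Foxp1 (ENSMUSG00000030067), a repressor found in many tissues, ran from 262 to 596 CPM with a median of 341 CPM in KPF and was at 154, 317 and 288 CPM in KPYYF libraries (log2 change -0.53 ± 0.33 SE, adjusted p = 0.470). The predicted gene Gm20696 overlaps Foxp1 on its strand. Foxp4 ran from 14.4 to 27.8 CPM in KPF and was at 20.5, 8.53 and 24.9 CPM in KPYYF libraries, and Foxp2 ran from 0 to 6.61 CPM in KPF and was at most 3.40 CPM in KPYYF libraries. Both overlapped between the groups.

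Foxk1 and Foxk2, factors of metabolism and autophagy, had like values. Foxk1 ran from 14.8 to 31.7 CPM with a median of 23.2 CPM in KPF and was at 32.2, 30.4 and 39.7 CPM in KPYYF libraries. Foxk2 ran from 12.4 to 34.2 CPM with a median of 17.3 CPM in KPF and was at 26.8, 28.0 and 32.5 CPM in KPYYF libraries. Each single gene overlapped (log2 fold changes 0.55 and 0.52, adjusted p = 0.527 and 0.595), while their sum was 28.4 to 49.6 CPM in KPF and 58.4 to 72.2 CPM in KPYYF libraries, a sum formed after the values were seen.

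Foxj2 ran from 23.2 to 42.6 CPM in KPF and was at 33.7, 39.6 and 28.7 CPM in KPYYF libraries, with a log2 change of 0.14. Foxj3 ran from 10.5 to 28.8 CPM in KPF and was at 8.91, 19.6 and 10.4 CPM in KPYYF libraries, with a log2 change of -0.74. Foxj1, which drives motile cilia, had 0.73 to 3.88 CPM in KPF and 0, 0.33 and 0 CPM in KPYYF libraries, below every KPF library but too few counts to be tested. Of 16 genes of the cilium list, 15 were in the annotation used and 3 were tested. Tppp3, a microtubule gene, was lower by the p and fold rule (log2 change -2.88 ± 0.83 SE, adjusted p = 0.116), Rfx3 had the highest value, 0.71, and 0 passed the adjustment.

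Foxn3, a repressor that acts after DNA damage, ran from 50.0 to 123 CPM with a median of 88.6 CPM in KPF and was at 45.4, 119.5 and 24.3 CPM in KPYYF libraries (log2 fold change -0.48, adjusted p = 0.662). Foxn2 ran from 8.88 to 25.1 CPM in KPF and was at 13.5, 2.51 and 18.7 CPM in KPYYF libraries (log2 fold change -0.41, adjusted p = 0.823). In library 4891 Foxn3 was the highest and Foxn2 the lowest of the KPYYF libraries.

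The tested members were also split by the gene structure described above. Among the 11 tested genes whose helix codons an intron interrupts, log2 fold changes ran from -1.24 to 1.75, with a median size of 0.53, and 2 passed the p and fold rule. Among the 13 tested genes with these codons in 1 exon they ran from -3.97 to 5.53, with a median size of 1.73, and 6 passed. Among these 6 are Foxc2 and Foxl1, which reached the 100 counts only through their KPYYF counts, and Foxl1 sets the upper end of 5.53. The p and fold rule took 9.2% of all genes tested as lower and 4.2% as higher. The 2 sets also differed in abundance and precision, with a median of 2154 counts per gene and a median standard error of 0.42 in the first and 1148 counts and 0.93 in the second, so that structure and abundance cannot be told apart here. This grouping was formed after the values were known and was not tested.

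Foxh1, which works with Smad2 and Smad4 under nodal and activin, had no count, and neither did Nodal. Of 12 genes of that arm 7 were tested, 0 passed the adjustment, and 1 was lower by the p and fold rule, the activin receptor gene Acvr1b (log2 change -1.52 ± 0.61 SE, adjusted p = 0.238). Acvr2a, a type II receptor gene, had the highest value, 0.79. Foxp3, the factor of regulatory T cells, had 5 counts, all in KPF libraries, most in 4601, the library with the highest sum of lymphoid markers, 125 CPM.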

How the data were processed

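RNA of FACS-sorted PDAC cells was measured in 6 KPF and 3 KPYYF libraries made, per the labels, with the Lexogen QuantSeq 3′ forward kit. The authors deposited raw counts per Ensembl gene for each library, without normalization. The submitters' processing notes name STAR, HTSeq and mm10, and their versions, the annotation and the strand setting are not given in the sources used here. The methods section describes BeadChip hybridization, which whole-number counts do not match. Genes were matched to GENCODE release M21. Genes with at least 100 counts in all were compared in R 4.3.3 with edgeR 4.0.16 (TMM, robust quasi-likelihood fit, no covariates). Standard errors were taken from each log2 change and its F statistic, as their ratio after the root of F. Sequences and figures used Python 3.11.15 and matplotlib 3.10.9, and the promoters come from RefSeq. The fitting steps were tested on simulated data. At an adjusted p under 0.05, edgeR recovered 18.4% of simulated 4-fold and 65.6% of 16-fold changes, so a member without a call may still differ. The forkhead genes and the gene lists were chosen with earlier results of these data known. Text values cover members with a call, without overlap or with a mean of at least 10 CPM, and for each list the genes with an adjusted p under 0.05, or else those with the highest and lowest change. Genes called by p and fold alone were added where a list had few. Other members are given by range. Alternatives were DESeq2 1.42.0, voom of limma 3.58.1, RLE and upper quartile factors, other filters, 4504h and 4504s summed, the 6 libraries with over 1000 Xist counts, and each library left out. Libraries of a group differed beyond sampling noise. The Cut&Tag and human data of the study were not analysed here. Some single genes, an allele and a sequence are not reported here.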

Additional observations from a re-analysis of the deposited data

Results flagged for a closer look

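In the 6 KPF libraries, 1 library stood far from the others in 2 of 23 tested members, by the gap to its nearest neighbour over the whole range, where chance gives about 1 in 20. Foxf1 was at 6.42 CPM in KPF library 4515, with 2.15 CPM in the next library, a gap of 0.666 of the range. Foxl1 was at 0.911 CPM in KPF library 4504s, with 0.102 CPM in the next, a gap of 0.888 of the range. These were 8 counts and 1 count, with 0 in the remaining KPF libraries, and the rate of 1 in 20 need not hold at such low counts. The causes were not tested.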

How the results depend on the processing

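Of 17 alternatives, Foxa2 kept its direction in all and an adjusted p under 0.05 in 14. With each library left out in turn, 0 to 2 members were lower at an adjusted p under 0.05. Without KPYYF library 4449 they were Foxa2 and Foxq1, and without 4891 or without 4938 there were 0. Over all genes tested, 198 of 13830 were lower without 4449, 15 of 13850 without 4891 and 13 of 13890 without 4938. With DESeq2, 4 members were lower (Foxa2, Foxa3, Foxo1 and Foxq1) and 2 higher (Foxc2 and Foxm1), where over all genes it called 928 lower and 269 higher against 112 and 43. On simulated counts, 34.5% of the DESeq2 calls at an adjusted p under 0.05 were false, against 5.81% of the edgeR calls. With voom, Foxq1 was the 1 lower and Foxc2 the 1 higher member, the adjusted p of Foxa2 was 0.106, and the p and fold rule gave 3 lower members (Foxa2, Foxo1 and Foxq1) and 2 higher (Foxc2 and Foxm1). Over all 14105 genes voom called 39 lower and 44 higher at an adjusted p under 0.05, and 1017 lower and 719 higher by the p and fold rule. Without a filter on low counts, 1 member was higher (Foxm1), beside 88 of all 22925 genes tested. Among the members named here, direction turned only in Foxo4, Foxn2 and Foxp4. Over the fits that each left out 1 library, the log2 fold change of Foxo4 ran from -0.20 to 0.49, with -0.15 without KPF library 4504h, -0.20 without KPYYF library 4891 and -0.08 without 4938. Foxn2 ran from -0.94 to 0.072 and Foxp4 from -0.59 to 0.050, both highest without 4891. Among the list medians, that of the Foxa partners moved from -1.50 to -4.00 with voom and -3.10 without KPYYF library 4449, and that of the cilium list from -1.64 to -0.54 in the 6 libraries with over 1000 Xist counts. The hedgehog median turned from 0.33 to -0.40 with voom and -0.48 without 4449. Medians near 0 also turned, that of the nodal list from 0.18 to -0.04 with voom, -0.09 without a filter and -0.64 without KPYYF library 4938. That of the Foxo regulators turned from -0.16 to 0.02 with voom, 0.11 in the 6 Xist libraries and 0.04 without KPF library 4515, and that of the Foxo targets from 0.09 to -0.02 with voom, to just below 0 without a filter, and to -0.10 without KPYYF library 4891. The Foxm1 target median stayed within 1.08 to 1.59. The causes were not tested. No paired analysis was possible because the groups share no mouse number. With 3 KPYYF libraries and few counts in Foxc2, Foxf1 and Foxl1, changes of such members could be estimated only roughly, as their standard errors of 1.53 to 2.23 show.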

Other observations

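The mesenchymal gene Foxf2 differed among the KPF libraries themselves, at 18.9 CPM in 4504h and 1.17 CPM in 4601. The pair with a common mouse number, 4504h and 4504s, had 25.3 and 8.77 CPM of Foxa1, 5.52 and 40.5 CPM of Foxa3 and 0.511 and 16.1 CPM of Foxo4, while their Foxm1 levels were 33.4 and 32.8 CPM. Foxd2 had 31 counts, at 2.97 CPM in KPF library 4435 and 0.22 CPM in 4515, and none in the other libraries. The lincRNA gene 9030622O22Rik, 2.7 kb from Foxa2 and named after its values were seen, was at -6.45 ± 2.42 on the log2 scale (SE, adjusted p = 0.206 from edgeR).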
